A study of Mus musculus with 9 samples.

Results

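The 9 genes described here encode the enzymes that carry ethanol to acetaldehyde, acetaldehyde to acetate and acetate to acetyl-CoA: Adh1, Adh4, Adh5, Cyp2e1, Aldh2, Aldh1a1, Aldh1b1, Aldh3a2 and Acss2. They were found by gene symbol, and each had 1 entry with known transcripts among the 26345 named entries of the gene table. Another 9 rows carried the symbol of one of these genes but held only transcripts assembled from these libraries, the highest at 6.95 FPKM for a piece of Adh4, and they were left out.

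Liver RNA was sequenced from 3 pair-fed (PF) mice on an isocaloric liquid diet, 3 alcohol-fed (AF) mice on the Lieber-DeCarli diet, a liquid diet in which alcohol replaces part of the calories, and 3 mice on the same alcohol diet that were also injected daily into the abdominal cavity with MNA at 50 mg/kg (AF with MNA). The feeding period was 5 weeks in all groups, the labelled age was 8 weeks, and the labelled strain was C57BL/6 in PF and AF. In AF with MNA the strain was labelled C57BL/7, C57BL/8 and C57BL/9 in replicates 1, 2 and 3, and the labels do not spell out MNA. The study's methods describe male mice that were fasted before death and name no MNA group. No group received MNA without alcohol, so MNA can be read only on top of alcohol feeding. Nothing in the labels says beyond the replicate number that each library is a separate animal, so the p-values measure the spread between these libraries. Because whole liver was sampled, fewer cells of a type and less RNA per cell cannot be told apart.

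Oxidation of ethanol in the liver is known to run mainly through cytosolic alcohol dehydrogenases and, at higher ethanol levels, through the microsomal cytochrome P450 CYP2E1, whose protein is known to be stabilised by ethanol. Both routes give acetaldehyde, a toxic and reactive aldehyde, which mitochondrial ALDH2 oxidises to acetate with help from cytosolic and other mitochondrial aldehyde dehydrogenases. Acetate mostly leaves the liver, or is joined to coenzyme A by acyl-CoA synthetases such as ACSS2. CYP2E1 is a known marker of the hepatocytes around the central vein.

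Total reads per library, recovered with an assumed read length of 150 bases, ranged from 57800660 to 82179248. The levels are in FPKM, fragment numbers scaled to the length of the transcript and the size of the library. They can be set side by side between genes, and between libraries with the limit that the named entries summed to between 191758 and 211886 FPKM. Hepatocyte markers marked the tissue as labelled: 9 of 10 had an entry, none was at 0 in all libraries, and their summed FPKM ranged from 22500 to 27700 in PF, from 21600 to 29300 in AF and from 26200 to 29400 in AF with MNA. AF replicate 3 and AF with MNA replicate 1 stood apart in transcripts assembled inside introns, with summed FPKMs of 9433 and 8934 against 2477 to 4937 in the other 7 libraries, and values without them are given where they change a call of one of the 9 genes or of the genes of other lists recomputed without them.

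Cyp2e1 was by far the most abundant of the 9 genes, and with it the group held some of the most abundant RNAs of the liver. It ranked 5 among the 26345 entries by mean FPKM and made up between 70% and 81.4% of the summed FPKM of the 9 genes in a library. Adh1 ranked 68, Aldh1a1 89 and Aldh2 170. Adh4, Adh5, Aldh3a2 and Acss2 followed at ranks 489, 654, 728 and 1347, and Aldh1b1, at rank 3436, was the lowest. In PF the order of mean FPKM was Cyp2e1, Adh1, Aldh1a1, Aldh2, Adh4, Adh5, Aldh3a2, Acss2 and Aldh1b1, and of the neighbours in that order only Adh1 and Aldh1a1 overlapped between libraries. In AF, Adh4 stood behind Adh5, and from Adh5 downward each pair of neighbours overlapped (Adh5 with Adh4, Adh4 with Aldh3a2, Aldh3a2 with Acss2, and Acss2 with Aldh1b1). In AF with MNA, Adh4 stood behind Aldh3a2 as well, and the 2 overlapped.

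**Figure D1:**
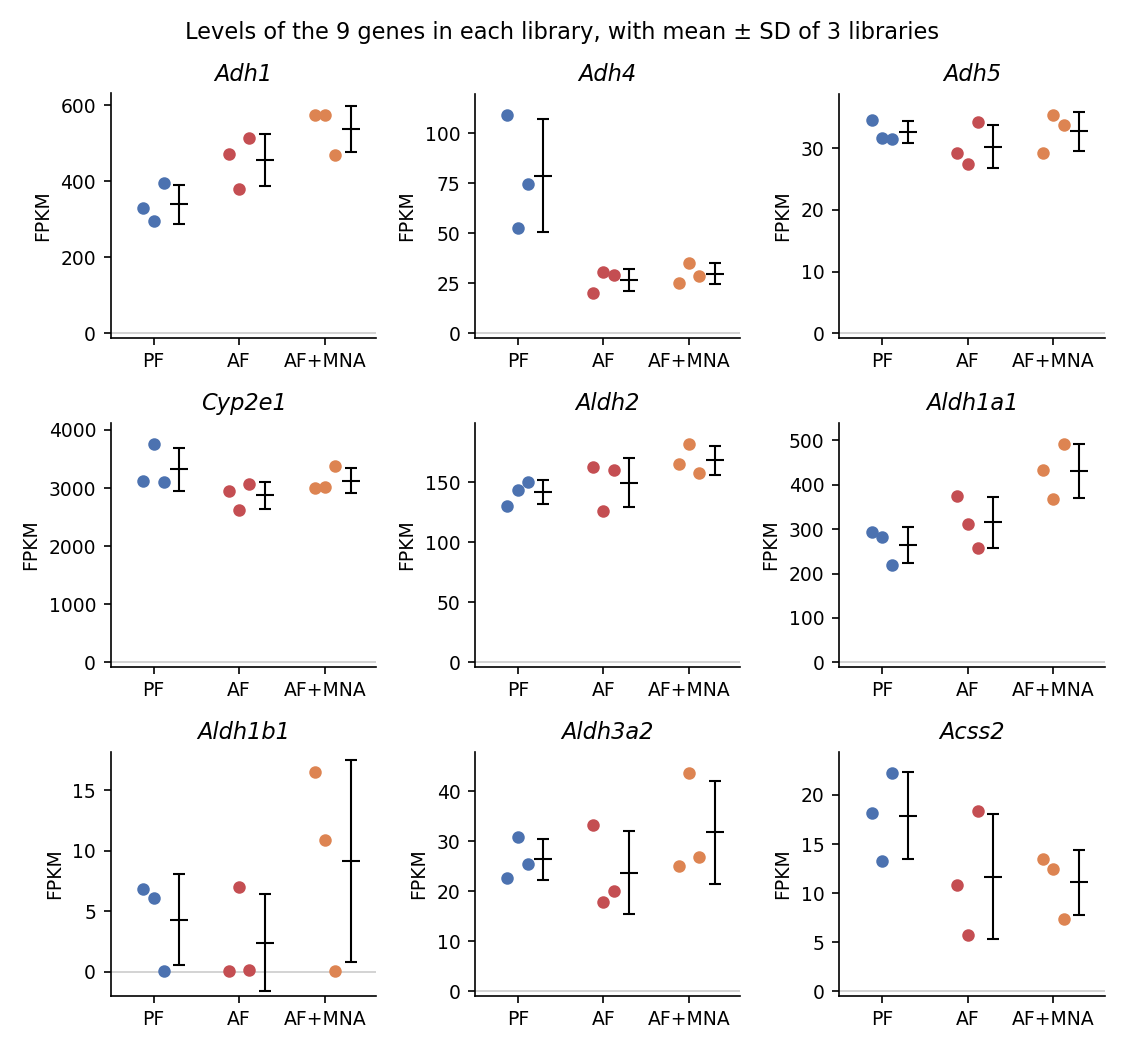
FPKM of each of the 9 genes (y axes, linear, a different scale in each panel) in the PF (blue), AF (red) and AF with MNA (orange) libraries; points are libraries, and black marks give the mean ± SD of 3 libraries. Adh4 lies between 52.83 and 108.93 in PF and at or below 35.34 in the 6 alcohol-fed libraries, and Aldh1b1 lies near 0 in 4 libraries spread over the 3 groups.

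The first comparison asks how alcohol feeding moved the genes of its own breakdown. Of the 9 genes, Adh4 was downregulated in AF at the threshold of the study's methods (group means more than 1 apart on the log2 scale, and p under 0.05 before adjustment), which 4.3% of the 12268 tested entries passed. The methods state that threshold for lncRNAs and the p of Ballgown, and it was applied here to genes with the p of limma. None of the 9 had an adjusted p under 0.05 (limma on log2(FPKM + 1), Benjamini-Hochberg over all tested entries), which 0.326% of all tested entries reached. An unadjusted p under 0.05 was reached by 1 of the 9, against 11.7% of all tested entries, and 2 of the 9, Adh4 and Cyp2e1, had all AF libraries on 1 side of all PF libraries, as did 18.3% of all tested entries. The median difference of the 9 genes was -0.19 on the log2 scale, beside -0.03 over all tested entries, and 3 of the 9 (Adh1, Aldh2 and Aldh1a1) were higher in AF.

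Adh4 encodes the class II alcohol dehydrogenase, a liver enzyme that works at high ethanol levels and also acts on retinol. It was measured at 108.93, 52.83 and 74.59 FPKM in PF replicates 1 to 3. In AF the values were 20.07, 30.41 and 29.33 FPKM. Every AF library lay below every PF library, and the spread was widest within PF. The means were 78.8 ± 28.3 FPKM in PF and 26.6 ± 5.68 FPKM in AF (SD, n = 3 each), a ratio of 0.338. On the log2(FPKM + 1) scale the difference was -1.49 (SE 0.29, 95% interval -2.20 to -0.79), with an unadjusted p of 0.00179 and an adjusted p of 0.127 in limma. The assembled piece of Adh4 that was left out was at 6.95, 3.04 and 4.0 FPKM in PF replicates 1 to 3 and at 0.0, 1.54 and 2.24 FPKM in AF replicates 1 to 3, so that adding it would not have narrowed the gap. Leaving out each library in turn moved the log2 difference between -1.75 and -1.23, and it was -1.57 without AF replicate 3.

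Adh1 encodes the class I enzyme, which carries most of the ethanol oxidation of the liver. Its level was 329.97, 294.26 and 395.34 FPKM in PF. In AF it was 472.84, 379.6 and 512.77 FPKM. AF replicates 1 and 3 lay above all PF libraries, while AF replicate 2 lay below PF replicate 3. The means were 340 ± 51.3 and 455 ± 68.3 FPKM (SD, n = 3 each), and the log2 difference of 0.42 (SE 0.19, 95% interval -0.04 to 0.88) did not pass (adjusted p = 0.47, limma).

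Adh5 encodes the class III enzyme, a glutathione-dependent formaldehyde dehydrogenase found in most tissues, and over the 9 libraries it varied least of all 9 genes. The PF libraries had 34.57, 31.61 and 31.44 FPKM, and the AF libraries 29.13, 27.38 and 34.19 FPKM. The groups overlapped, and the 95% interval of the log2 difference, -0.43 to 0.21, held no change larger than that in either direction (adjusted p = 0.805, limma).

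The 3 alcohol dehydrogenase genes lie in 1 cluster on chromosome 3, on the same strand, but their differences between PF and AF were unlike. In the mouse build GRCm38, Adh1 occupies chr3:138260991-138290698, Adh4 chr3:138415466-138430892 and Adh5 chr3:138443093-138455499. The cluster of 238 kb from Adh7 to Adh5 holds 9 annotated genes, of which 7 had an entry. Adh6-ps1, a transcribed pseudogene that is the next gene before Adh4, was at 8.81, 7.27 and 2.23 FPKM under pair feeding and at 0.68, 0.27 and 1.79 FPKM under alcohol feeding. Its log2 difference was -1.82 (SE 0.48, unadjusted p = 0.00762, adjusted p = 0.249, limma), and all AF libraries lay below all PF libraries. It thus passed the threshold of the methods, as Adh4 did, and in all 14 alternatives. In AF with MNA, Adh6-ps1 was at 0.81, 3.05 and 2.79 FPKM and overlapped with PF. Unlike Adh4, it did not pass in that comparison (log2 difference -1.08, unadjusted p = 0.0758, adjusted p = 0.408, limma), and did so in 1 of 14 alternatives. Between AF with MNA and AF it did not pass (log2 difference 0.74, unadjusted p = 0.113, limma), but it did without AF replicate 3 (1.05, unadjusted p = 0.0416) and without AF with MNA replicate 1 (1.11, unadjusted p = 0.019), the libraries that stood apart, with adjusted p-values of 0.65 and 0.77 (limma). Adh7, the class IV enzyme best known from the stomach, had group means of 8.59 and 6.34 FPKM in PF and AF with overlapping libraries. Adh6b was listed at 0.01 to 0.04 FPKM in all libraries, and Adh6a was not analysed here. The 5 genes of this paragraph with a test had adjusted p-values of at least 0.127 in AF against PF (limma).

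**Figure D2:**
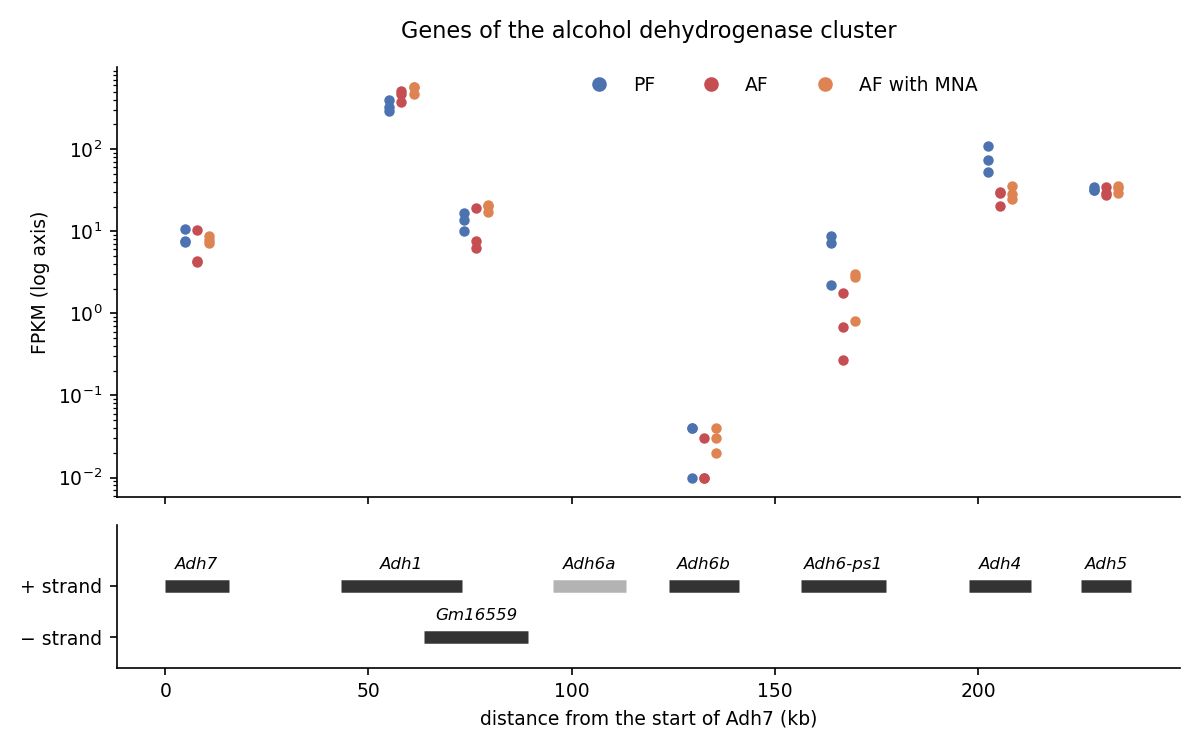
Top: FPKM (log axis) of the genes with an entry in the alcohol dehydrogenase cluster, 1 point a library, in PF (blue), AF (red) and AF with MNA (orange). Bottom: the genes drawn to scale by their distance from the start of Adh7 in kb, on the plus or minus strand, with a gene that has no value here in grey and a small nuclear RNA gene inside Adh6b left out. The AF and PF points are separate at Adh4 and its neighbour Adh6-ps1, and overlap at Adh5, the next gene on the other side.

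Reads that fit equally well in 2 of these related genes could be shared between them, so the transcripts were compared by exact stretches of 50 bases. None of the 1265 stretches of Adh4 and none of the 1555 stretches of Adh5 occurred in a transcript of another gene, while 4 of the 1443 stretches of Adh1 (0.277%) also occurred in Adh6-ps1. Aldh1a1 shared 151 of 2309 stretches (6.54%) with its close relative Aldh1a7, and Cyp2e1 shared 85 of 1784 (4.76%) with other transcripts such as Fcho2. No stretch of 150 bases of any of the 9 genes was found in another gene.

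The promoters of these 3 genes are shown because they share 1 stretch of chromosome while of the 3 only Adh4 passed the threshold of the methods, with that of Cyp2e1 as the most abundant gene. The sequences are the 250 bases before the RefSeq start in GRCm38.p6, 5′ to 3′ on the strand of the gene, which is the plus strand in each. Capitals mark matches, on either strand, to TATAAA (the TATA box), CCAAT (the CCAAT box), GGGCGG (the GC box), CACGTG (an E-box), AGGTCA (a half-site of nuclear receptors) or TTCNNNGAA (a STAT site); no 2 of the marked matches overlap.
Adh1, chr3:138277335-138277584: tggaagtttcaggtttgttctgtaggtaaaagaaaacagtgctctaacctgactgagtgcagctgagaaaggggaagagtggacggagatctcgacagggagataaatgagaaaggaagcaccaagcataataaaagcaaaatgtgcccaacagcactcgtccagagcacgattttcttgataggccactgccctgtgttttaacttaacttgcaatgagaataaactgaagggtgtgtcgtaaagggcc
Adh4, chr3:138415247-138415496: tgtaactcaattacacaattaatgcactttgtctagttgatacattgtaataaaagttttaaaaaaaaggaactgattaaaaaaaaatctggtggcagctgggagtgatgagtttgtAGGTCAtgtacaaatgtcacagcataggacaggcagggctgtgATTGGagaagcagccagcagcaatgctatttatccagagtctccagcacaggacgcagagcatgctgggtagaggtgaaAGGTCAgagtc
Adh5, chr3:138442843-138443092: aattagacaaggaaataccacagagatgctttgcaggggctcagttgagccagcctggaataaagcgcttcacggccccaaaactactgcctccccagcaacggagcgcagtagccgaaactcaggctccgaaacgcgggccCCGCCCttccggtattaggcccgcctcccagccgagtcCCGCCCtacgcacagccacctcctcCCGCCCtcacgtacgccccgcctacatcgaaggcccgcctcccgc
Cyp2e1, chr7:140763569-140763818: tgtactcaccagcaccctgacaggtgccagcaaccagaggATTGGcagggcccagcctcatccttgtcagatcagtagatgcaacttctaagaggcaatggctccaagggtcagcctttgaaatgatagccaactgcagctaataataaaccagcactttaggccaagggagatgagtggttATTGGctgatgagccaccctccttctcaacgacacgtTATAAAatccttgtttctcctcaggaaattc

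The window of Adh4 held 2 half-sites AGGTCA, whose first bases lie 133 and 11 bases before the start, and 1 CCAAT box on the opposite strand 90 bases before it. Among all 32851 promoter windows of the table, 14% held at least 1 AGGTCA and 33.8% at least 1 CCAAT. The window of Adh5 held 3 GC boxes, at least 1 of which was found in 32.7% of all windows, had 21 CpG dinucleotides and a GC content of 63.6%, higher than that of 80% of all windows. Adh5 has a second RefSeq start upstream, and the window printed is the one at its annotated gene start. The other, chr3:138436950-138437199, held no GC box, a TATA box 207 bases before its start, 2 CpG and 45.2% GC. Adh4 and Adh1 had 41.6% and 44.8% GC with 1 and 5 CpG, and none of the 6 motifs was found in the window of Adh1. The RefSeq start of Adh1, chr3:138277585, lies inside its annotated gene span, which begins at chr3:138260991, so the window is not at the annotated gene start. Cyp2e1 held a TATA box 31 bases before the start, a motif in 12.4% of all windows, and CCAAT boxes 68 and 210 bases before it. A match of letters is a description and not a bound site, and no binding or methylation was measured here. Promoter windows were found for 8 of the 9 genes, with none for Aldh2.

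Cyp2e1 RNA was not higher in the alcohol-fed livers. Its values were 3121.85, 3753.52 and 3103.63 FPKM in PF. In AF they were 2951.24, 2620.24 and 3067.36 FPKM. All 3 AF libraries lay below all 3 PF libraries, by as little as the step from 3067.36 to 3103.63 FPKM. The means were 3330 ± 370 and 2880 ± 232 FPKM (SD, n = 3 each), and the log2 difference of -0.21 (SE 0.19) had a 95% interval of -0.66 to 0.25 and an adjusted p of 0.722 (limma), so a doubling of the RNA lies outside the interval.

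The aldehyde dehydrogenases did not pass the test in AF against PF. Aldh2, the mitochondrial enzyme with the highest affinity for acetaldehyde, was at 130.44, 143.77 and 150.06 FPKM under pair feeding and at 162.65, 125.78 and 159.84 FPKM under alcohol feeding. The AF libraries lay on both sides of the PF libraries, and the log2 difference was 0.07 (95% interval -0.31 to 0.45, adjusted p = 0.898, limma). Aldh1a1, a cytosolic enzyme that also makes retinoic acid from retinal, had 294.34, 282.74 and 218.79 FPKM in PF. In AF it had 375.38, 311.24 and 258.75 FPKM, with AF replicate 3 inside the PF range, and the log2 difference was 0.24 (95% interval -0.25 to 0.74, adjusted p = 0.693, limma). Aldh3a2, the fatty aldehyde dehydrogenase of the endoplasmic reticulum and peroxisome, had means of 26.3 ± 4.18 FPKM in PF and 23.7 ± 8.27 FPKM in AF (SD, n = 3 each), with a range of 17.91 to 33.14 FPKM in AF that enclosed the PF libraries (adjusted p = 0.817, limma).

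Aldh1b1, a mitochondrial relative of Aldh2, could not be read as a group level. It was at 6.8, 6.11 and 0.01 FPKM in PF. The AF libraries had 0.04, 7.0 and 0.11 FPKM, and those of AF with MNA 16.57, 10.88 and 0.03 FPKM. Every group thus held at least 1 library above 6 FPKM and at least 1 near 0, and at the depth of these libraries the near-zero values stand for a mean coverage of 0.0616 to 0.797 reads per base where the other libraries had 41.2 to 138. Such an on and off pattern was seen in 99 of the 4041 entries that reached 5 FPKM (2.45%), and among the 9 genes in Aldh1b1 alone. Its log2 differences had 95% intervals from -3.43 to 1.70 in AF against PF, from -1.52 to 4.55 in AF with MNA against AF and from -2.49 to 3.78 in AF with MNA against PF.

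Acss2, the cytosolic and nuclear enzyme that activates acetate, varied widely within groups. The PF libraries had 18.19, 13.28 and 22.2 FPKM, and the AF libraries 10.83, 5.73 and 18.38 FPKM. AF replicate 3 lay within the PF range, and AF replicate 2 was the lowest of all 9 libraries. The log2 difference was -0.68 (SE 0.39, 95% interval -1.63 to 0.26, adjusted p = 0.566, limma). Without AF replicate 3, which also held the most intron signal, the log2 difference was -1.05 and Acss2 passed the threshold of the methods (unadjusted p = 0.0197, adjusted p = 0.272, limma), and without AF replicate 2 it was -0.29.

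**Figure D3:**
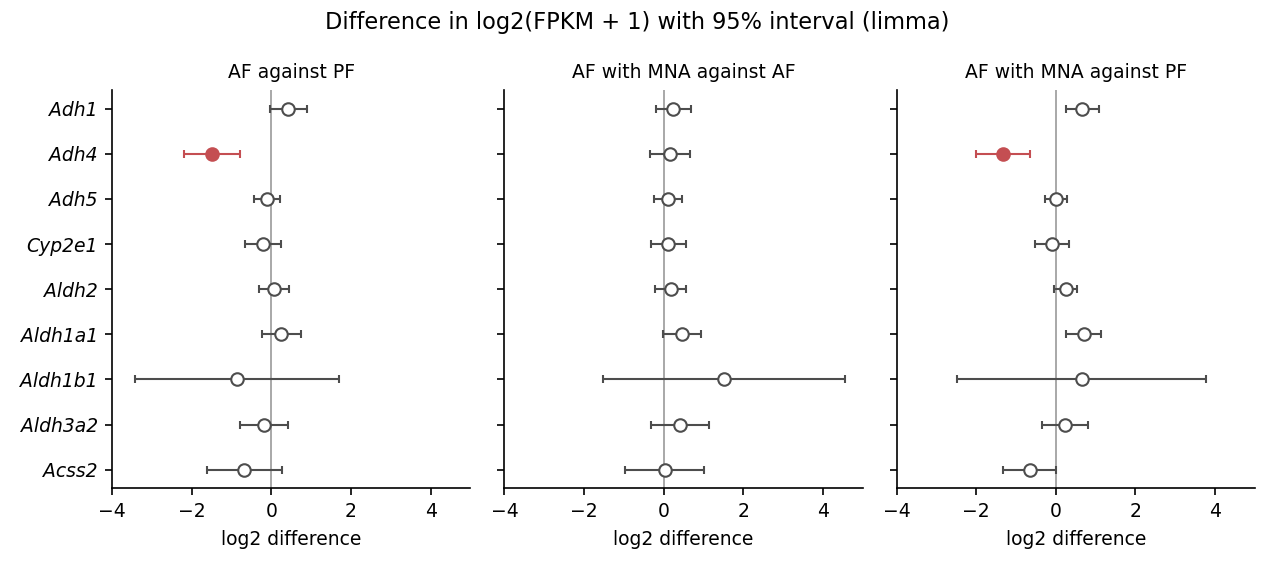
Difference in log2(FPKM + 1) of each of the 9 genes (points) with its 95% interval from limma (bars), for AF against PF, AF with MNA against AF and AF with MNA against PF; 3 libraries a group. Filled red points passed the threshold of the methods, which Adh4 did at -1.49 and -1.33 in the comparisons with PF, and no gene did in AF with MNA against AF.

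The second comparison asks what MNA added to alcohol feeding. Of the 9 genes, 0 had an adjusted p under 0.05 in AF with MNA against AF (limma; 0.0491% of the 12214 tested entries did), 0 passed the threshold of the methods (1.98% of tested entries) and 0 had an unadjusted p under 0.05 (5.22%). In 0 of the 9 were the libraries of the groups apart, against 10.1% of tested entries. All 9 log2 differences were above 0, as were those of 6403 of all 12214 tested entries, with a median of 0.18 beside 0.01 over all. Acss2, however, had a log2 difference of 0.03 with a lower mean FPKM (11.1 against 11.6), and its log2 difference turned to -0.36 without AF replicate 2 and to -0.13 and -0.07 without replicates 1 and 2 of AF with MNA. That of Adh4 was -0.02 without AF replicate 1.

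Aldh1a1 had the lowest unadjusted p of the 9. Its level with MNA added was 434.3, 369.06 and 491.37 FPKM, 432 ± 61.2 on average against 315 ± 58.4 in AF (SD, n = 3 each). The lowest of these libraries lay just below the highest AF library of 375.38 FPKM, and the log2 difference was 0.46 (SE 0.20, 95% interval -0.02 to 0.94, unadjusted p = 0.0594, adjusted p = 0.94, limma). Adh4, the gene lowest against PF, was at 25.02, 35.34 and 28.67 FPKM with MNA added, and the log2 difference from AF was 0.16 (95% interval -0.34 to 0.67, adjusted p = 0.986, limma).

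Adh1 was at 573.38, 572.95 and 468.17 FPKM in AF with MNA, a mean of 538 ± 60.6 FPKM (SD, n = 3), and overlapped with AF at its lowest library (log2 difference 0.25, adjusted p = 0.97, limma). Cyp2e1 was at 2992.78, 3018.09 and 3377.94 FPKM, and Aldh2 at 164.96, 181.49 and 157.66 FPKM. Both overlapped with AF, with 95% intervals of the log2 difference of -0.32 to 0.56 for Cyp2e1 and -0.21 to 0.56 for Aldh2.

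The third comparison sets the livers with alcohol and MNA against PF. It uses the same PF libraries as the first, so the 2 are not independent. Again 0 of the 9 genes had an adjusted p under 0.05 (limma; 0.432% of the 12276 tested entries did), 1 passed the threshold of the methods (3.89% of tested entries), 3 had an unadjusted p under 0.05 (14.5%), and 4 had libraries that did not overlap (21.4%). The 3 were Adh4, Adh1 and Aldh1a1, and the fourth without overlap was Aldh2. The median log2 difference of the 9 was 0.23, beside -0.02 over all tested entries.

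Adh4 averaged 29.7 ± 5.23 FPKM in AF with MNA (SD, n = 3), and its log2 difference from PF was -1.33 (SE 0.28, 95% interval -2.01 to -0.65, unadjusted p = 0.00286, adjusted p = 0.151, limma). Adh1 was higher than in PF by 0.67 on the log2 scale (SE 0.17, 95% interval 0.25 to 1.08, unadjusted p = 0.00755, adjusted p = 0.199, limma), a ratio of means of 1.58. Aldh1a1 was higher by 0.70 (SE 0.18, 95% interval 0.26 to 1.15, unadjusted p = 0.00793, adjusted p = 0.201, limma), a ratio of 1.63. These are the class I dehydrogenase and a cytosolic aldehyde dehydrogenase, the 2 most abundant of the 9 genes after Cyp2e1. Aldh2 was higher by 0.25 (95% interval -0.05 to 0.54, adjusted p = 0.434, limma), with 157.66 FPKM as the lowest library of AF with MNA and 150.06 FPKM as the highest of PF. Acss2 was at 13.52, 12.43 and 7.35 FPKM in AF with MNA, against 17.9 ± 4.47 in PF (SD, n = 3), with libraries that overlapped by the step from 13.28 to 13.52 FPKM (adjusted p = 0.349, limma).

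Levels of different enzymes can also be set against each other within a library, which removes the scaling of the library from the value. The ratio of Adh1 to Aldh2, of the class I enzyme that makes acetaldehyde to the main enzyme that removes it, was 2.53, 2.05 and 2.63 in PF. It was 2.91, 3.02 and 3.21 in the AF libraries and 3.48, 3.16 and 2.97 with MNA added. All 6 alcohol-fed libraries lay above all 3 PF libraries. The log2 ratio was higher in AF than in PF by 0.35 and in AF with MNA than in PF by 0.42, each with an exact permutation p of 0.1 (two-sided), the smallest that 3 libraries against 3 allow, so these designs cannot reach 0.05.

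The ratio of Cyp2e1 to Adh1 was 9.46, 12.8 and 7.85 in the PF libraries, 6.24, 6.9 and 5.98 in the AF libraries, and 5.22, 5.27 and 7.22 with MNA added. Here too the PF libraries did not overlap with either alcohol-fed group, but both ratios hold Adh1, so they are not independent. The log2 ratio was lower in AF than in PF by 0.63 (values of 2.67 ± 0.11 and 3.30 ± 0.35, SD, n = 3 each; exact permutation p = 0.1, two-sided). Between AF with MNA and AF the 2 ratios overlapped, with exact permutation p-values of 0.5 and 0.6.

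**Figure D4:**
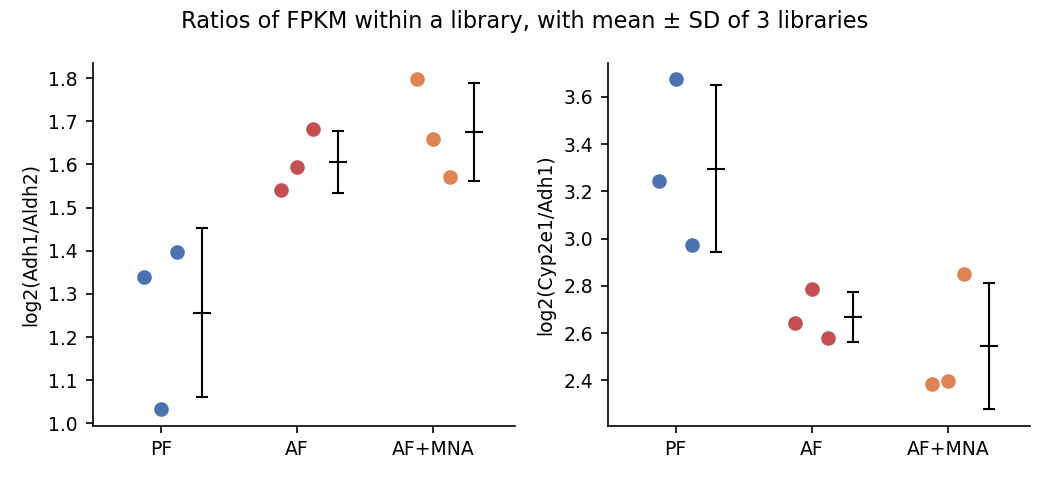
Log2 ratio of FPKM within each library (y axes, not from 0) for Adh1 over Aldh2 (left) and Cyp2e1 over Adh1 (right), in PF (blue), AF (red) and AF with MNA (orange); points are libraries and black marks the mean ± SD of 3. The PF libraries lie below the other 6 on the left and above them on the right.

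Around these 9 genes, the other enzymes of the same families and of the next steps were read as lists. The other alcohol dehydrogenases had 2 of 4 genes tested, Adh7 and Adhfe1, and neither passed in any comparison. Their median log2 difference in AF against PF was -0.38. Of the 19 other aldehyde dehydrogenases and aldehyde oxidases, 11 were tested. In AF against PF, 1 rose and 1 fell at an adjusted p under 0.05 (0.326% of all tested entries passed), 7 of the 11 had an unadjusted p under 0.05 (11.7% of all) and 7 had libraries that did not overlap (18.3% of all). The median of the list was -0.06, with 5 of 11 above 0.

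Aox3, an aldehyde oxidase of the liver, was the one that fell. The PF libraries had 65.8, 60.57 and 53.76 FPKM, and the AF libraries 22.99, 21.5 and 23.01 FPKM, a log2 difference of -1.37 (SE 0.13, adjusted p = 0.0141, limma). The adjusted p was 0.0543, 0.0708, 0.0629 and 0.0572 without PF replicate 1, PF replicate 2, AF replicate 1 and AF replicate 3 (limma). After MNA as well as alcohol it had 21.33, 28.68 and 26.38 FPKM, and the log2 difference from PF was -1.21 (adjusted p = 0.0445, limma), a call that did not hold with any 1 of the 6 libraries left out (adjusted p from 0.0714 to 0.136). Aldh5a1, the succinate semialdehyde dehydrogenase of GABA breakdown, rose from 3.93, 4.14 and 4.43 FPKM in PF to 12.51, 8.81 and 10.88 FPKM in AF, a log2 difference of 1.17 (SE 0.15, adjusted p = 0.0458, limma). Of the 6 libraries left out in turn, only AF replicate 2 left that call standing, and without any other the adjusted p lay between 0.112 and 0.156 (limma). The libraries of AF with MNA had 12.35, 10.54 and 10.34 FPKM (adjusted p = 0.0171 against PF, limma), and the adjusted p was 0.0596, 0.0587 and 0.0558 without PF replicate 1, PF replicate 2 and AF with MNA replicate 3. With the replicate number as a block, neither gene had an adjusted p under 0.05 in either comparison (Aox3 0.108 and 0.247, Aldh5a1 0.183 and 0.158, limma), while both passed the threshold of the methods in all 14 alternatives of each comparison. Aldh3b1 passed the threshold of the methods in AF against PF, with means of 1.05 and 2.26 FPKM (adjusted p = 0.202, limma), but not without PF replicate 1. Neither Aox3 nor Aldh5a1 is known as a main enzyme of acetaldehyde.

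Among the minor routes of ethanol oxidation and the electron supply of P450 enzymes, all 6 genes were tested and the median log2 difference in AF against PF was 0.61, with 5 of 6 above 0 (5580 of all 12268 tested entries were) and 0 at an adjusted p under 0.05 (limma; 3 at an unadjusted p under 0.05, where 11.7% of all were). Cyp3a11, a P450 of broad substrate range, passed the threshold of the methods. The PF libraries had 71.9, 119.88 and 128.31 FPKM, and the AF libraries 303.15, 335.05 and 224.28 FPKM (log2 difference 1.45, adjusted p = 0.121, limma). With MNA added it had 404.97, 374.45 and 294.6 FPKM (log2 difference from PF 1.77, adjusted p = 0.0769, limma). Cyp1a2 had means of 317 and 619 FPKM in PF and AF (adjusted p = 0.127), and Por, the reductase that feeds electrons to P450 enzymes, 91 and 162 FPKM (adjusted p = 0.325), while catalase, which can oxidise ethanol with hydrogen peroxide, had 356 and 365 FPKM (adjusted p = 0.972, all limma).

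The genes of acetate and acetyl-CoA handling had 9 of 10 tested and 0 at an adjusted p under 0.05 in AF against PF (limma; 3 at an unadjusted p under 0.05, beside 11.7% of all), with a median of -0.03. The 13 genes of NADH reoxidation, the shuttles and dehydrogenases that use up the NADH made from ethanol, were all tested, with 0 at an adjusted p under 0.05 (limma; 2 at an unadjusted p under 0.05, beside 11.7% of all) and a median of 0.04. Gpd1, the cytosolic glycerol-3-phosphate dehydrogenase, had the lowest p of the latter, with means of 62.2 and 34.2 FPKM (adjusted p = 0.254, limma). In AF with MNA against AF, 0 genes of the 5 lists had an adjusted p under 0.05 or passed the threshold of the methods (limma), and 2 had an unadjusted p under 0.05, Hacl1 and Gpd2 (5.22% of all tested entries did).

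**Figure D5:**
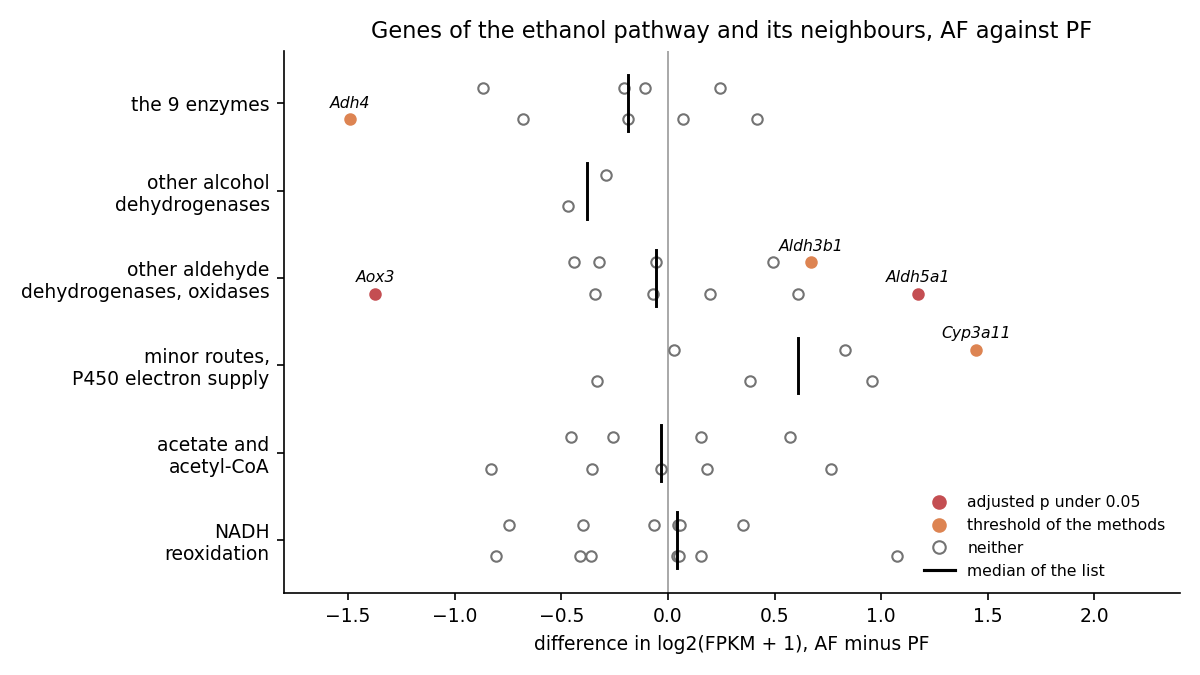
Difference in log2(FPKM + 1), AF minus PF, of each tested gene (points) of the 9 enzymes and of 5 neighbouring lists, with the median of each list as a black bar. Red points had an adjusted p under 0.05 in limma (Aox3 at -1.37 and Aldh5a1 at 1.17), orange points passed only the threshold of the methods (Adh4, Aldh3b1 and Cyp3a11), and open points passed neither; heights within a list only separate the points.

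The levels of cell type markers were summed in each library. The summed FPKM of the pericentral markers (9 of 10 measured, none at 0 in all libraries) ranged over 1230 to 1370 in PF, 1430 to 1630 in AF and 1360 to 1770 when MNA was added, but the list holds Cyp1a2. Without it the sums were 923 to 1070, 901 to 927 and 820 to 1110 FPKM. The periportal markers (10 of 10 measured, none at 0) summed to 2040 to 2700 FPKM in PF, 2850 to 3740 in AF and 2560 to 3100 when MNA was added. Most of that sum came from Cps1, Pck1 and Ass1, whose mean FPKM was 904, 604 and 471 under pair feeding and 1260, 760 and 644 under alcohol feeding (unadjusted p of 0.068, 0.185 and 0.064, limma), and 3 of the 10 (Cyp2f2, Sult5a1 and Cdh1) had a log2 difference below 0. The endothelial markers (8 of 8, none at 0) summed to 35.5 to 48.3, 47.8 to 62.2 and 55.5 to 59.3 FPKM. The Kupffer cell and leukocyte markers (9 of 10, none at 0) summed to 72 to 75.9, 49.7 to 108 and 80 to 99.3 FPKM, and the stellate cell markers (10 of 10, none at 0) to 37.5 to 41.8, 32.4 to 47.4 and 36.5 to 50 FPKM. The cholangiocyte markers (6 of 6, none at 0) summed to 3.48 to 4.73, 5.04 to 9.4 and 3.37 to 6.35 FPKM, and the markers of neighbouring tissues (4 of 8, none at 0) to 5.47 to 6.92, 2.25 to 4.31 and 3.11 to 7.23 FPKM. Of the 56 markers tested over the 8 lists (Cps1 is in 2 and counted in both), 0 had an adjusted p under 0.05 in any comparison (limma), and 14, 1 and 13 had an unadjusted p under 0.05 in AF against PF, AF with MNA against AF and AF with MNA against PF, where 11.7%, 5.22% and 14.5% of all tested entries had. The threshold of the methods was passed by 2, 0 and 2 of them, against 4.3%, 1.98% and 3.89% of all. These were Sds, a serine dehydratase (15.6 and 33.3 FPKM in PF and AF), and the macrophage receptor Marco (0.803 and 1.91 FPKM) in AF against PF, and Marco (2.39 FPKM with MNA added) and the lysozyme gene Lyz2 (9.93 and 24.3 FPKM) in AF with MNA against PF. Of the 7 Kupffer cell and leukocyte markers tested in AF against PF, only 2 had a log2 difference above 0, with a median of -0.02. Clec4f (13.2 and 8.49 FPKM in PF and AF) and Vsig4 (8.86 and 6.16 FPKM) had lower means in AF. In AF against PF, Sds did not pass without PF replicate 1 or AF replicate 2, Marco passed only without PF replicate 1 or AF replicate 3 of the 6 libraries left out in turn, and Lyz2 passed without AF replicate 3 (unadjusted p = 0.0258, limma). With a library left out, Lyz2 in AF with MNA against PF had an adjusted p from 0.0265, without PF replicate 3, to 0.401 (limma). There it passed the threshold of the methods in 13 of 14 alternatives. The part of these shifts in the differences of the 9 genes was not tested.

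For the 3 of the 9 genes with the widest range over the 9 libraries, the entries with the most similar course were sought among 3607 entries of at least 5 FPKM, by the root mean square distance of the centred log2(FPKM + 1) values. For Adh4, whose own values spread by 0.74, the nearest were Aox3 at a distance of 0.29, Hspa5, the main chaperone of the endoplasmic reticulum, at 0.31 and Serpina7, the thyroxine-binding globulin, at 0.33. Hspa5 had 123.54, 85.12 and 69.69 FPKM under pair feeding, 37.67, 42.82 and 44.46 FPKM in the AF libraries, and 29.68, 52.98 and 52.72 FPKM with MNA added. Serpina7 had 23.34, 11.47 and 10.73 FPKM under pair feeding, 2.92, 2.44 and 3.19 FPKM in the AF libraries, and 4.23, 5.92 and 3.37 FPKM with MNA added. Both lay highest in PF replicate 1, where Adh4 did too, which the choice of entries by their closeness to Adh4 favours.

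For Acss2, with a spread of 0.55, the nearest were 1190002N15Rik at 0.20, Tcea3 at 0.21 and Nipsnap1 at 0.23. Tcea3, a transcription elongation factor, had 7.4, 4.81 and 8.15 FPKM under pair feeding, 5.23, 2.52 and 5.88 FPKM in the AF libraries, and 5.2, 4.42 and 3.64 FPKM with MNA added. Its lowest value was in AF replicate 2, as that of Acss2 was, which the choice by closeness again favours. For Aldh1b1, with a spread of 1.65, no entry came closer than 1.18 (1600014C10Rik).

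Noncoding transcripts at the same loci were low with 1 exception. The lncRNA table held 29 transcripts that overlap the annotated span of one of the 9 genes, 20 of them in that of Aldh1a1. These 20 lie between chr19:20495690 and chr19:20597974, in the early part of a span that begins at chr19:20492715. All of them end before the downstream RefSeq start of Aldh1a1, chr19:20601968. Of those tested, 0 of 23, 0 of 28 and 0 of 25 had an adjusted p under 0.05 in AF against PF, AF with MNA against AF and AF with MNA against PF (limma; 0.0164%, 0% and 0% of all tested lncRNA transcripts did). An unadjusted p under 0.05 was reached by 1 in each comparison, against 2.62%, 1.81% and 2.57% of all tested lncRNA transcripts. Gm16559, which lies on the strand opposite to the 3′ part of Adh1, was at 16.81, 10.2 and 13.64 FPKM under pair feeding, 7.58, 6.3 and 19.27 FPKM in the AF libraries, and 17.01, 20.41 and 20.63 FPKM with MNA added. The AF libraries were spread from the lowest value of the 9 to above all PF libraries, and the adjusted p of its gene entry was 0.744 in AF against PF and 0.94 in AF with MNA against AF (limma). In the fit of lncRNA transcripts it had an unadjusted p under 0.05 in both comparisons of AF with MNA. Against PF, all libraries of AF with MNA lay above all PF libraries, with means of 19.4 and 13.5 FPKM and a log2 difference of 0.51 (SE 0.19, unadjusted p = 0.0272, adjusted p = 0.593 over lncRNA transcripts, limma). Against AF the unadjusted p was 0.0235 and the adjusted p 0.591 (limma), but the libraries overlapped, with AF replicate 3 at 19.27 FPKM above 17.01 FPKM in AF with MNA replicate 1, and the gene entry had an unadjusted p of 0.0512. The libraries were made with strand kept, so that Adh1 and Gm16559 can be told apart. Gm42879 at Aldh2 and Acss2os at Acss2 had group means between 0.112 and 0.228 FPKM.

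Circular RNAs of the 9 genes were rare. Of 17959 junction reads of circular RNAs, 22 (0.123%) came from 6 circular RNAs of Cyp2e1, Adh1, Aldh2 and Aldh1a1. In PF, AF and AF with MNA, Cyp2e1 had 6, 0 and 4 reads and Adh1 had 1, 0 and 4, each over 2 intronic circular RNAs. Aldh2 had 2, 0 and 2 reads, and Aldh1a1 had 0, 3 and 0. With so few reads no difference between groups was detectable at this depth, and Adh4, Adh5, Aldh1b1, Aldh3a2 and Acss2 had no junction read.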

How the data were processed

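The authors prepared strand-specific libraries from liver RNA depleted of ribosomal RNA, and per the labels used cutadapt 1.9, HISAT2 and StringTie 1.3.4. The genome build was not given in the sources used here, and known transcripts matched GENCODE M21 (GRCm38) by identifier. The FPKM values of genes and lncRNA transcripts were deposited by the authors as StringTie wrote them, with gene values rounded to 2 decimals. The lncRNA coverage signal was deposited by the authors unscaled, as was the junction count of each circRNA. The coding potential score columns of the authors were not used. Total reads were recovered from the junction counts and their deposited normalized signal, with a read length of 150 bases assumed. Genes have no counts, so their precision comes from the spread between libraries.

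Named entries with a known transcript that averaged 0.5 FPKM or more in the 6 libraries of a comparison (0.1 FPKM for lncRNA transcripts) were tested as log2(FPKM + 1) with limma 3.58.1 (lmFit, eBayes with an intensity trend) in R 4.3.3, two-sided, with Benjamini-Hochberg adjustment over all tested entries. Fold changes on this scale understate the change of low genes. All 9 libraries were used, and ratios were compared with an exact permutation test in scipy 1.17.1 (Python 3.11.15, pandas 2.3.3, numpy 2.4.6, matplotlib 3.10.9). The fit was tested on simulated data. Library profiles correlated at 0.91 to 0.9419 across genes and none were identical. Replicate numbers did not pair the libraries, since correlations of the deviations of same-numbered libraries lay between -0.08 and 0.061. The genes and lists were chosen with earlier results of these data known. Named were the 9 genes, the genes of the 5 pathway lists that passed either threshold (up to 5 per list and comparison), and the 3 entries closest in course to each of the 3 genes with the widest range. Other genes of these lists, of the markers and of the cluster were named after their values were seen. Promoters are from RefSeq (GRCm38.p6).

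Alternatives were a pseudocount of 0.1, scaling to the same median or sum, any value above 0, at least 2 FPKM, no trend, all 9 libraries in 1 fit, a replicate block, and each library left out; for lncRNA transcripts the block and the left-out libraries were added after seeing the data, as were all alternatives for Aox3, Aldh5a1, Aldh3b1, Cyp3a11, Adh6-ps1, Sds, Marco and Lyz2.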

Additional observations from a re-analysis of the deposited data

Results flagged for a closer look

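Junction reads of circular RNAs, which no comparison used, were above the control level in 2 cases. Adh1 had 4 reads in AF with MNA, all from 1 library and from an intronic circular RNA, against 1 read in PF. Aldh1a1 had 3 reads in AF, all from 1 library, against 0 in PF.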

How the results depend on the processing

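In AF against PF the 40 entries with an adjusted p under 0.05 (limma) became 25 with any value above 0 tested, 86 with all 9 libraries in the fit, 18 with the replicate block and 25 to 47 with a library left out. The 527 past the threshold of the methods became 1183 with any value above 0, 265 at 2 FPKM and 516 to 764 with a library left out. In AF with MNA against AF the 6 became 2 with any value above 0, 2 at 2 FPKM, 0 with all 9 libraries, 1 with the replicate block and 6 to 13 with a library left out, and the 242 became 676, 81 and 211 to 367. In AF with MNA against PF the 53 became 22 with any value above 0, 0 with the replicate block and 24 to 47 with a library left out, and the 477 became 1105, 228 and 467 to 545. The causes were not tested.

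Of the 9 genes, 0 had an adjusted p under 0.05 under any of these alternatives, the replicate block included, and the lowest for Adh4 in AF against PF was 0.0587 with all 9 libraries in the fit and the highest 0.326. The count past the threshold of the methods ranged from 1 to 2 in AF against PF (Adh4, and Acss2 without AF replicate 3) and from 0 to 1 in AF with MNA against AF (Aldh1b1 without AF with MNA replicate 3). Of 378 values of the 9 genes under alternatives, 366 kept their direction, and 12 reversed, all with a library left out: Adh4 (-0.023 to 0.273) and Acss2 (-0.364 to 0.399) in AF with MNA against AF, and Adh5 (-0.049 to 0.083), Cyp2e1 (-0.141 to 0.006), Aldh1b1 (-0.314 to 1.917) and Aldh3a2 (-0.014 to 0.374) in AF with MNA against PF. Of the genes of the neighbouring lists, Aldh5a1 reversed in AF with MNA against AF, to -0.073 without AF replicate 2 and -0.024 without AF with MNA replicate 1 (range -0.073 to 0.158 with a library left out). Beside the left-out libraries and the block, Aldh5a1 in AF against PF had an adjusted p of 0.0894 with any value above 0 and 0.0571 after scaling to the same sum, Aox3 in AF with MNA against PF 0.079 with any value above 0 and 0.0634 after scaling to the same median, and Cyp3a11 in AF with MNA against PF 0.0337 with all 9 libraries in the fit. Of the 6 called entries in AF with MNA against AF, 33.3% were higher, and 42.9% of 7 after scaling to the same median and 0% of 4 to the same sum.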
